A study of Mus musculus with 3 samples.

Results

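The zinc finger genes Zfp800 to Zfp999 are the 90 of 22028 GENCODE M21 protein_coding genes of the mouse whose symbol is Zfp followed by a 3-digit number beginning with 8 or 9. They were selected by a rule on the symbol that uses no read count. They were examined in small RNA libraries of fully grown oocytes, the large egg cells held in ovarian follicles before ovulation. Every mouse was given 5 IU of PMSG, a hormone that promotes the growth of follicles, 48 hours before it was killed. Trizol-extracted total RNA was run on a polyacrylamide gel and cut into windows of 19-24 nt, 24-30 nt and 19-30 nt, and each window was joined to adapters, amplified by RT-PCR and read on the Illumina 1G platform. There was 1 library per window and no untreated group. Strain, age and number of animals are not given in the sources used here. No difference between libraries therefore has a replicate check, and library, gel window and sequencing run cannot be told apart.

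Zfp genes encode proteins with C2H2 zinc fingers, short folds that each hold a zinc ion and, placed in tandem, read DNA sequence. Many of them arose by repeated local duplication and also carry a KRAB domain, which recruits the corepressor TRIM28 to silence transposons and other targets. Mouse oocytes are known for endogenous small interfering RNAs, which Dicer cuts from double-stranded RNA formed by transposons, inverted repeats and gene-pseudogene pairs, and for PIWI-interacting RNAs, which are longer and tend to begin with U. A C2H2 pattern (2 cysteines 2 to 4 residues apart, 12 residues, then 2 histidines 3 to 5 residues apart) was found in the translated coding sequence of 87 of the 90 genes, with a median of 11 and at most 22 per gene. Each coding sequence was translated in every reading frame, and the highest count over frames and transcripts was kept. Some patterns may thus lie out of frame. The 3 genes without a pattern were Zfp839, Zfp957 and Zfp972.

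A read was counted where its first 20 nt matched an annotated exon without mismatch, on either strand. A unique read matched a single place among all annotated exons. A shared read matched several places and was divided equally among them, which gives weighted reads. Duplicated sequence limits what can be assigned to these genes. Of the 20-base windows in their exons, 68.5% were unique, against 90.9% in the 275 other Zfp genes. In the coding sequence, which holds the fingers, the share was 53.5% against 86.4%. In the 3′ UTR it was 80% against 92.9%. Zfp965, Zfp967 and Zfp969 on chromosome 2 had no unique window, and in 15 of the 90 genes under 10% of windows were unique.

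Uniquely assignable antisense reads were few. All 5 of them are shown here because each matched a single place among annotated exons. They are written 5′ to 3′ over the 20 matched bases, as DNA, with the first base in capitals. Coordinates throughout are GRCm38.
Zfp865, coding sequence, chr7:5031412-5031431, minus strand: Cctaggaaatgcttgaagct
Zfp865, coding sequence, chr7:5031710-5031729, minus strand: Cttgaaggcgcgctcgcccg
Zfp934, coding sequence of transcript Zfp934-210, chr13:62522462-62522481, plus strand: Ttggatctcatggaggaatt
Zfp950, 3′ UTR, chr19:61126315-61126334, plus strand: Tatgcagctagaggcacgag
Zfp976, transcript without coding sequence, chr7:42610379-42610398, plus strand: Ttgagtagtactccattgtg
Each was read once. Both Zfp865 reads came from the 19-30 nt library, where their inserts were 21 and 22 nt long. The other 3 came from the 24-30 nt library, where inserts of 23 nt or more could not be sized. These 3 began with U and both Zfp865 reads with C.

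Some of the shared sequences with the most weighted reads are shown next, as examples from the 3 genes that lead on the antisense strand, Zfp950, Zfp934 and Zfp970. The signal was spread over many sequences: the first antisense sequence of each gene held 7.57%, 9.88% and 13.5% of its weighted antisense reads. The capital again marks the first base.
Zfp950 antisense, chr19:61124035-61124054, plus strand: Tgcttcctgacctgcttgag
Zfp950 antisense, chr19:61126311-61126330, plus strand: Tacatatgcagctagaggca
Zfp950 sense, chr19:61117640-61117659, minus strand: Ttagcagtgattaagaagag
Zfp934 antisense, chr13:62479989-62480008, plus strand: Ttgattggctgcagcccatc
Zfp934 antisense, chr13:62479967-62479986, plus strand: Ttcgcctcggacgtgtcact
Zfp970 antisense, chr2:177477898-177477917, minus strand: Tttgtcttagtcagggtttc
Zfp970 sense, chr2:177477806-177477825, plus strand: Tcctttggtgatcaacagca
The first of them matched 140 places in 132 genes and was read 64, 33 and 185 times in the 19-24, 24-30 and 19-30 nt libraries. The second matched 2 places, the other in Gm45159, and was read 0, 3 and 1 times. It lies 4 bases from the unique Zfp950 sequence above, on the same strand. The leading Zfp934 sequence matched 10 places and was read 24 times, all in the 24-30 nt library. The next one matched 20 places and was read 11, 3 and 18 times, with a median insert of 21 nt in the 19-30 nt library. The Zfp970 antisense sequence matched 35 places and was read 8, 10 and 31 times, and the Zfp970 sense sequence matched 22 places and was read 7, 186 and 14 times.

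The libraries held 764539, 1484509 and 943811 reads in the order 19-24, 24-30 and 19-30 nt, of which 315156, 343364 and 146656 matched an annotated transcript. MicroRNAs made up 78.6%, 7.3% and 18.4% of these. Where no read was seen, up to 3 could have been missed by chance, or 9.52, 8.74 and 20.5 reads per 1000000 matched (RPM). MicroRNAs of the germline and early embryo reached 2716, 61.2 and 12137 RPM, with 13, 9 and 13 of 13 detected, and Mir880, Mir881, Mir293 and Mir295 at 0 in the 24-30 nt library. MicroRNAs of granulosa cells and stroma summed to 162809.8, 1925 and 8187 RPM, with 9 of 9 detected in each library. Those of blood summed to 10918, 384 and 109 RPM, with 5, 3 and 4 of 5 detected, Mir144 and Mir142 at 0 in the 24-30 nt library and Mir142 at 0 in the 19-30 nt library. How far RNA of these cells adds to the Zfp reads was not tested.

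Antisense reads reached many of the genes, nearly always as shared reads. At least 1 antisense read, unique or shared, fell on 31, 45 and 42 of the 90 genes in the 19-24, 24-30 and 19-30 nt libraries, and on 50 (55.6%) in any library. Over all protein_coding genes the background was 27.4%, 25.3% and 28.9%, and 34.2% in any library. The other Zfp genes stood at 48.7% in any library. For unique antisense reads the count was 0, 3 and 1 genes, and 4 (4.44%) in any library. The background for unique reads was 4.9%, 3.83% and 5.37%, and 9.85% in any library, with 14.5% of the other Zfp genes. The share of genes hit lay above the background with shared reads included and below it with unique reads alone. With unique reads the 24-30 nt library was near the background, at 3.33% against 3.83%. Unique windows are also scarcer in these genes, 68.5% against 90.9% in the other Zfp genes. How far this lowers the unique count was not tested.

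A count of genes hit by shared reads weighs a fraction of a read like a whole one. At least 1 weighted antisense read was reached by 16 genes (17.8%, against 15.1% of all protein_coding genes), and at least 10 by 3 genes (3.33% against 3.66%). Both shares lie near the background. Of the other 34 genes with antisense reads, 15 had from 0.1 to under 1 weighted read and 19 had less. The 6 genes Zfp984 to Zfp989 on chromosome 4 were hit by the same single read of the 24-30 nt library, which matched 12 places. The 7 genes Zfp931, Zfp965, Zfp966, Zfp967, Zfp968, Zfp969 and Zfp973 on chromosome 2 shared the same 2 reads. In 29 genes antisense reads appeared in all 3 libraries, in 10 genes in 2 and in 11 genes in 1. Nearly all of these reads were shared, and the same counts over all protein_coding genes are not given here.

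**Figure D1:**
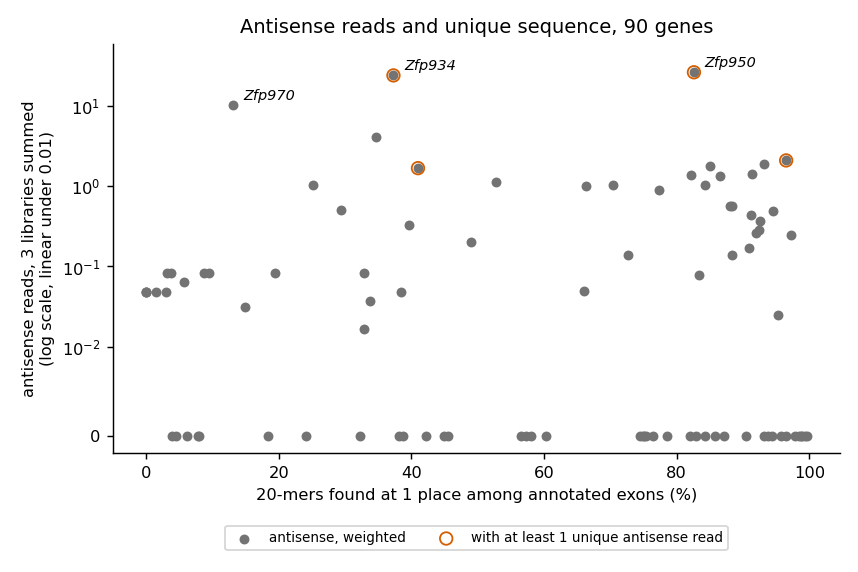
Each point is 1 of the 90 genes, with the percent of its 20-base windows found at a single place among annotated exons on the x axis and its weighted antisense reads, summed over the 3 libraries, on a log y axis that is linear under 0.01. Circles mark the 4 genes with a unique antisense read, and Zfp950, Zfp934 and Zfp970 stand above 10 reads at 82.6%, 37.3% and 13.1% of unique windows.

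Over all 90 genes the weighted antisense reads numbered 20.1 (exact Poisson 95% interval 12.3 to 31), 28.9 (19.3 to 41.5) and 40 (28.5 to 54.4) in the 19-24, 24-30 and 19-30 nt libraries. These and all other intervals of weighted reads were computed as if the weighted sums were counts of reads. Shared reads enter as fractions, so the intervals are only a rough guide to counting error. They leave out the error of dividing a read among places and any variation between libraries. Reads amplified by PCR are also not independent molecules. The weighted reads came from 1220, 1148 and 2909 actual reads, with medians of 146, 126 and 165 places per read. In the 19-30 nt library 5.01% of the weighted antisense reads matched 1 place, 21.2% matched 2 to 10, 45.7% matched 11 to 100 and 28.1% matched more than 100. Of all 5272 shared antisense reads, 24.2% matched more than 1 of the 90 genes, 77.5% another Zfp gene, 88.1% a pseudogene and 99.7% a long non-coding gene. An olfactory or vomeronasal receptor gene was matched by 97.1% of them, and another coding gene by 99.6%. Only 4 of them matched Zfp genes and nothing else. The same shares for shared reads antisense to all coding genes are not given here, so these have no background. At none of the antisense places was there an annotated gene on the strand of the read.

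The antisense level was 63.8, 84.1 and 272 RPM. Per 1000000 matched reads without microRNA it was 298, 90.7 and 334, so the order of the 19-24 and 24-30 nt libraries depended on the scale. The ratio of the 19-24 over the 24-30 nt library was 0.758 (conditional binomial interval 0.407 to 1.39) on the first scale and 3.29 (1.76 to 6.01) on the second. The ratio of the 19-30 over the 19-24 nt library was 4.27 (2.44 to 7.7) and 1.12 (0.64 to 2.02). The microRNA share of the libraries thus moved with these ratios. For the 19-30 over the 24-30 nt library the ratio was 3.24 (1.96 to 5.42) and 3.68 (2.22 to 6.16), but it was 1.32 with distinct sequences, 1.9 with at most 10 places per read and 6.27 with every match counted in full. In the 24-30 nt library 67584 reads, 19.7% of all matched, were antisense to the single gene Yipf1, and 65755 of them carried 1 sequence. Values over all coding genes are therefore given below without Yipf1, a choice made after the data were seen. With these reads left out of the totals as well, the ratio of the 19-30 over the 24-30 nt library was 2.61 (1.58 to 4.37) for the 90 genes. For all coding genes it was 0.65 (0.642 to 0.659) with Yipf1 and 1.46 (1.44 to 1.48) without it and its reads in the totals.

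Sense reads outnumbered antisense reads. They fell on 35, 54 and 54 of the 90 genes by library, or 38.9%, 60% and 60%, against a background of 36.2%, 42.1% and 31.1% of all protein_coding genes. In any library they fell on 72 genes (80% against 50.7%). Unique sense reads fell on 9, 15 and 7 genes, or 10%, 16.7% and 7.78%, against 16.8%, 26.3% and 8.55%, and on 27 genes in any library (30% against 34.5%). Weighted sense reads numbered 36.8, 123 and 112 in the 19-24, 24-30 and 19-30 nt libraries. The antisense share was 35.3% (Wilson 95% interval 24.2 to 48.3), 19% (13.5 to 25.9) and 26.3% (20 to 33.9). Coding genes without Yipf1 had 24.4%, 35.6% and 43.7%, and the other Zfp genes 33.8%, 41.2% and 44%. In the 24-30 and 19-30 nt libraries the upper bounds for Zfp800 to Zfp999 lay below both of those shares, while in the 19-24 nt library the interval held both. The share of the 19-30 nt library was 36.8% without the 3 leading genes and 43.9% with every match counted in full. With unique reads alone, the 24-30 nt library had 13% (4.54 to 32.1). Coding genes without Yipf1 then had 11.4% and the other Zfp genes 28.8%, both inside that interval. The 19-30 nt library had 8.33% (2.32 to 25.8) with unique reads, against 34% and 37%. By gene, 47 had reads on both strands, 25 on the sense strand only and 3 (Zfp808, Zfp825 and Zfp869) on the antisense strand only. In 15 genes antisense exceeded sense. The same counts by strand are not given here for all protein_coding genes, so they have no background.

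The 3 leading genes held 68.8% of the weighted antisense reads and 69.2% of the weighted sense reads. Each of the 3 had reads on both strands in all libraries. Their antisense reads numbered 26.6, 24.3 and 10.4, and 4.21, 7.46 and 0.9 with only reads of at most 10 places kept, and Zfp970 then stood below Zfp937 with 3.73.

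**Figure D2:**
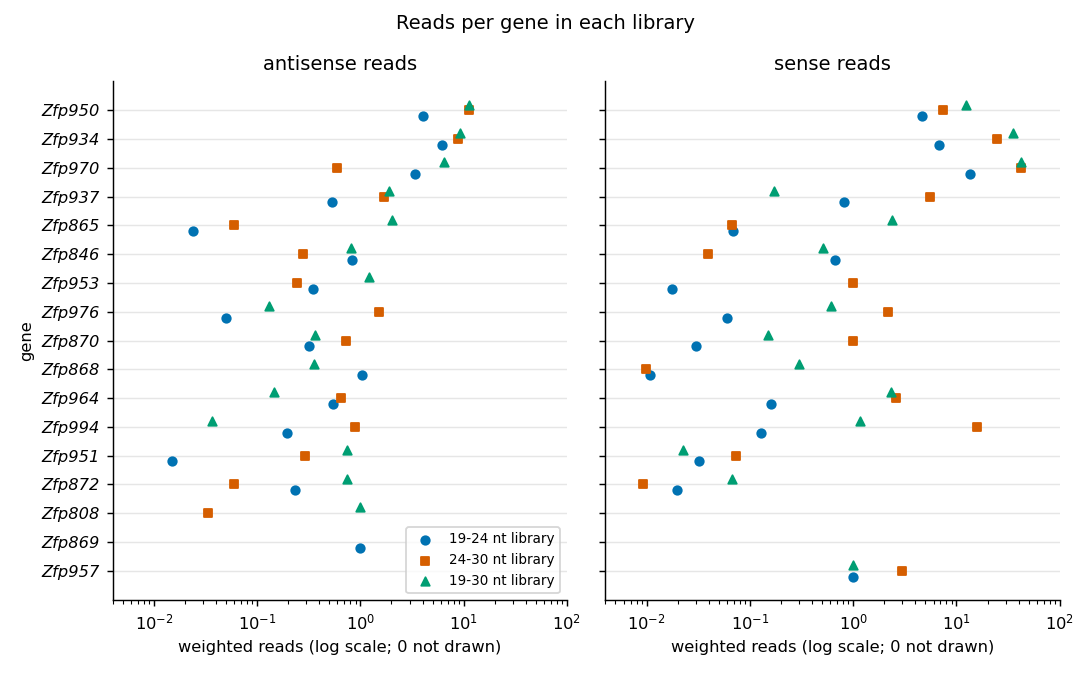
Weighted reads per gene on a log axis, antisense on the left and sense on the right, with 1 symbol per library, for the 16 genes with at least 1 weighted antisense read and Zfp957. Zfp950, Zfp934 and Zfp970 lead on the left with 26.6, 24.3 and 10.4 reads in all, and values of 0 are not drawn.

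Zfp950 (chr19:61053840-61140840, minus strand) carries 17 C2H2 patterns. Its weighted antisense reads were 4.01, 11.4 and 11.2 in the 19-24, 24-30 and 19-30 nt libraries, and its sense reads 4.61, 7.42 and 12.3. Both strands were thus near balance, with 52.2% antisense (38.8 to 65.3). In number of weighted antisense reads, 449 of the 22028 protein_coding genes stood above it. Its reads fell into separate stretches. Of the antisense reads 99.9% were in 3′ UTR. A block of 4612 bases (chr19:61122456-61127067), found in several of its transcripts, held 23.7 antisense and 7.19 sense reads. Within it, 18.9 antisense reads began 2890 to 3214 nt from the start of the block and 4.82 began 707 to 955 nt from it. A small block of 103 bases further 3′ (chr19:61117625-61117727), used by Zfp950-202 alone, had the opposite balance, with 2.81 antisense and 13.3 sense reads. Zfp950-202 is annotated as a target of nonsense-mediated decay, the pathway that removes transcripts with early stop codons.

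Zfp934 (chr13:62479827-62571199, minus strand), with 11 C2H2 patterns, had 6.14, 8.86 and 9.29 weighted antisense reads and 6.73, 24.5 and 35.0 sense reads. On the sense strand this was 21.4, 71.3 and 239 RPM, or 99.9, 76.9 and 292 without microRNA in the total, so the 19-30 nt library was highest on both scales and the order of the other two depended on the scale. On the antisense strand it was 19.5, 25.8 and 63.3 RPM, or 91.1, 27.8 and 77.6 without microRNA. Its antisense share was 26.8% (18.8 to 36.8). Nearly all reads lay in a pair of exon blocks, each found in 1 transcript. The block of 368 bases at chr13:62479827-62480194, in the 3′ UTR of Zfp934-204, annotated as a target of nonsense-mediated decay, held 18.7 antisense and 32.0 sense reads. The block of 211 bases at chr13:62522455-62522665, in the 5′ UTR and the start of the coding sequence of Zfp934-210, held 5.54 antisense and 33.4 sense reads.

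That second block also held 15 of the 51 unique sense reads of all 90 genes, the most of any of them. Their sequences are shown because their 5′ ends lie within 4 bases of each other.
Zfp934 sense, chr13:62522507-62522526, minus strand: Tgacacagctggcgctatca
Zfp934 sense, chr13:62522508-62522527, minus strand: Ttgacacagctggcgctatc
Zfp934 sense, chr13:62522510-62522529, minus strand: Acttgacacagctggcgcta
Zfp934 sense, shared, chr13:62522513-62522532, minus strand: Tcaacttgacacagctggcg
The first was read once in the 19-24 nt and 8 times in the 19-30 nt library, with inserts of 21 to 23 nt. The second was read 5 times and the third once, all in the 19-30 nt library. The 24-30 nt library had none of these 3. The fourth sequence, which also matched Gli2 and Vmn2r79, was read 8 times, again only in the 19-30 nt library, with a median insert of 21.5 nt. No antisense read was unique there except the single one shown earlier from the same block.

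Zfp970 (chr2:177464733-177478129, plus strand), with 14 C2H2 patterns, had no unique read on either strand. Its weighted antisense reads were 3.36, 0.591 and 6.40, or 10.7, 1.72 and 43.6 RPM, and the 24-30 nt library was lowest also without microRNA in the total (49.9, 1.86 and 53.5). Its sense reads were 13.4, 42.3 and 42.0. This was 42.4, 123 and 287 RPM, or 198, 133 and 351 without microRNA, so the 19-30 nt library was highest on both scales and the order of the other two was not the same. Its antisense share was 9.58% (5.34 to 16.6). All but a small fraction came from the last block (chr2:177477640-177478129, 490 bases, 3′ UTR of Zfp970-201), which held 10.3 antisense and 97.6 sense reads. Other Zfp genes took part in 14.7% of its antisense reads, against 91.3% for Zfp934 and 75.1% for Zfp950. Olfactory or vomeronasal receptor genes took part in 98.2%, against 93.8% for Zfp934 and 99% for Zfp950. Its sense sequence shown above was read 186 times in the 24-30 nt library, against 7 and 14 times in the others.

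**Figure D3:**
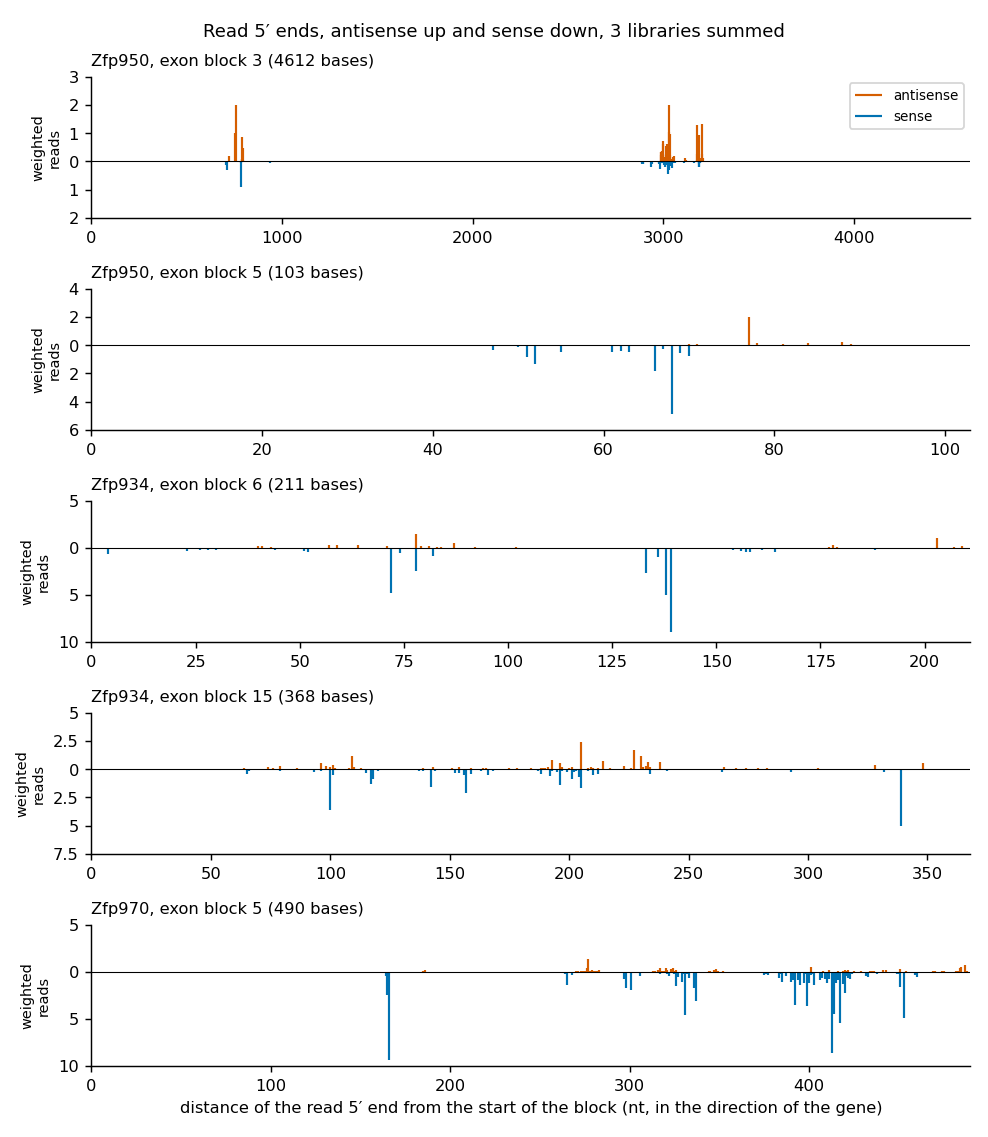
Weighted reads at each 5′ end, antisense above and sense below the line, summed over the 3 libraries, against the distance in nt from the start of the exon block, for the 5 blocks of Zfp950, Zfp934 and Zfp970 with at least 2 antisense reads. Zfp950 block 3 shows separate clusters with 4.82 and 18.9 antisense reads, while sense reads dominate in Zfp970 block 5 (97.6 against 10.3).

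The other genes named by the rule stood out on the sense strand. Zfp937 (chr2:150218073-150240725) had 5 unique sense reads, all in the 24-30 nt library and in its 3′ UTR, and 4 of them lay at chr2:150240047-150240067. They had the sequences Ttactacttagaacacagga and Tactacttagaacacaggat, 1 base apart, each read 2 times. Its weighted antisense reads were 0.528, 1.69 and 1.90, of which 2 in all came from a sequence shared only with Gm15983. An overlapping sequence, also shared only with Gm15983, gave 1 more. Zfp957 (chr14:79212355-79247369) had 1, 3 and 1 sense reads and no antisense read. Of these, 3 were unique. Zfp865 (chr7:5020376-5036768), with 21 C2H2 patterns, had 2 unique reads on each strand, all in its coding sequence and in the 19-30 nt library, with inserts of 21 and 22 nt. It is the only gene of the 90 with more than 1 unique antisense read. The sense pair, Tgacgcctgcggcaagacgt at chr7:5031099-5031118 and Ttccgctgcccagtgtgtgg at chr7:5031556-5031575, did not overlap the antisense pair.

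Some genes outside the rule were picked after their values were seen. Zfp994 (chr17:22197265-22225616) had 17 weighted sense reads against 1.12 antisense, and 15.7 of the sense reads were in the 24-30 nt library. Its leading sequence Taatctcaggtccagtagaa (chr17:22197857-22197876, minus strand, 3′ UTR) matched 3 places in Zfp994 and D10Wsu102e and was read 23 times, all in that library. Zfp839, which has no C2H2 pattern, and Zfp871 tied with Zfp865 and Zfp950 at 2 unique sense reads. Those of Zfp839 were in the 19-30 nt library, of 22 and 23 nt. Of the 27 genes with unique sense reads, 20 had 1. No read at all fell on 15 genes: Zfp800, Zfp809, Zfp819, Zfp830, Zfp831, Zfp850, Zfp853, Zfp879, Zfp938, Zfp943, Zfp948, Zfp956, Zfp958, Zfp975 and Zfp978. Of all protein_coding genes, 50.7% had a sense read in any library and 34.2% an antisense read. Their share without a read on either strand is not given here. Zfp809 is known for silencing murine leukaemia proviruses in embryonic cells. Of its windows 95.7% were unique, so a read from it could have been assigned, within the limit given above for a count of 0.

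By chromosome, the 17 genes on chromosome 17, most of any, held 3.73 weighted antisense and 31.4 sense reads. The 16 on chromosome 4 held 2.26 and 6.42. The 12 on chromosome 2 held 14.9 and 106, mostly in Zfp970.

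By transcript part, 80.4% of the weighted antisense reads lay in 3′ UTRs, 6.46% in coding sequence, 6.56% in 5′ UTRs and 6.57% in transcripts without coding sequence. The 3′ UTRs hold 39.5% of the 20-base windows of these genes and the coding sequence 42.1%. On the sense strand the shares were 74.1% for 3′ UTRs, 6.43% for coding sequence, 13.8% for 5′ UTRs and 5.64% for transcripts without coding sequence. These shares rest largely on Zfp950, Zfp934 and Zfp970, with 68.8% of the antisense and 69.2% of the sense reads. Of their antisense reads 99.9%, 77.1% and 99.5% lay in 3′ UTRs, and of their sense reads 99.8%, 48.3% and 99.9%. The shares of the other genes alone were not computed. Coding sequence thus held a smaller share of the reads than of the windows on both strands, although 19.4% of its windows matched over 10 places, against 4.32% in the 3′ UTRs. Among the unique antisense reads the parts differed, with 3 of 5 in coding sequence.

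Insert lengths could be read over the whole window in the 19-30 nt library. There, 86.3% (72.4 to 93.8) of the weighted antisense reads and 85.9% (78.3 to 91.2) of the sense reads were 20 to 23 nt long. Inserts of 24 to 30 nt made up 12.6% and 12.5%. Coding genes without Yipf1 had 80.6% and 81.4% at 20 to 23 nt. The antisense interval held the value for all coding genes. Antisense inserts of 23 nt or longer made up 40.8% (22.5 to 62) in the 19-24 nt window and 96.7% (83.1 to 99.4) in that of 24-30 nt.

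**Figure D4:**
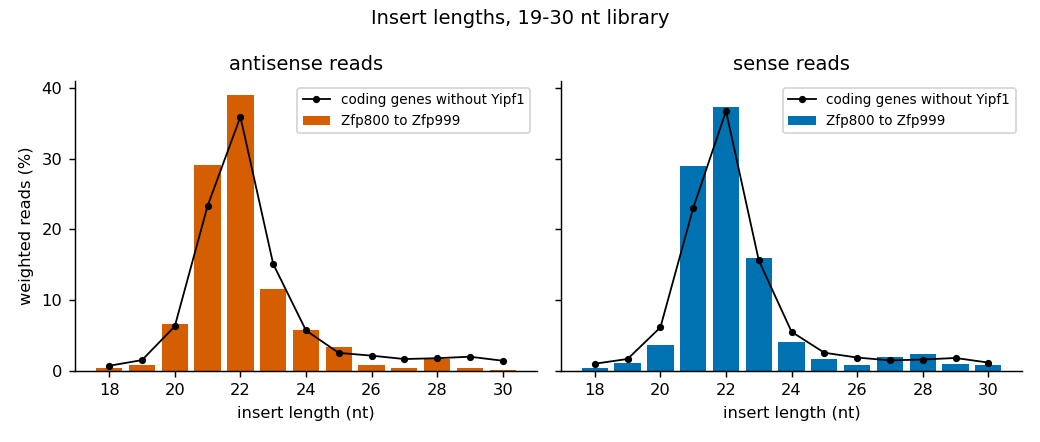
Percent of weighted reads (y axis) by insert length in nt (x axis) in the 19-30 nt library, bars for Zfp800 to Zfp999 and the line for coding genes without Yipf1, antisense on the left and sense on the right. On both strands the bars peak at 22 nt, with 86.3% and 85.9% at 20 to 23 nt.

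A first base of U was found in 51.3% (31.1 to 71.2), 79% (61.2 to 90) and 55.5% (40.3 to 69.7) of the weighted antisense reads of the 19-24, 24-30 and 19-30 nt libraries. On the sense strand the shares were 47.9% (32.7 to 63.4), 64.5% (55.7 to 72.4) and 60.7% (51.4 to 69.2). Sense reads of coding genes without Yipf1 gave 42.2%, 54% and 56.9%. The interval for the 90 genes lay above this value in the 24-30 nt library and held it in the others. Antisense reads of coding genes without Yipf1 gave 61.4%, 77% and 57.5%, each inside the interval of these genes. U was the most frequent first base in each library on both strands. Among the 3 leading genes it began 79.7% (61.1 to 90.7) of the antisense reads of Zfp950, 61% (41.4 to 77.6) of those of Zfp934 and 49.7% (23.8 to 75.8) of those of Zfp970, and the 3 intervals overlapped.

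Places of reads on opposite strands were compared next. The 5′ ends of a Dicer duplex typically overlap by slightly less than the read length, whereas partners of the PIWI cycle overlap by 10 nt. Among inserts up to 23 nt the 90 genes held 242 pairs of 5′ ends overlapping by 20 nt, the most at any overlap from 1 to 26 nt, and 119 pairs at 10 nt. The median over overlaps other than 10 nt was 152. Among longer or unsized inserts there were 111 pairs at 10 nt against a median of 102 and a maximum of 143 at 17 nt. Zfp950 and Zfp970 also had most pairs at 20 nt among the shorter inserts, with 46 and 34, while Zfp934 had most at 22 nt, with 38. Among longer or unsized inserts Zfp934 had most pairs at 10 nt, with 32 against at most 29 at any other overlap and a median of 23. There Zfp950 had most at 20 nt, with 41 against 34 at 10 nt, and Zfp970 had 9 at 10 nt against a median of 14. Nearly all of these ends belong to shared reads, each of which was placed at every match, so a pair here need not come from 1 locus. Matching used the first 20 nt, so at an overlap of 20 nt both reads match the same 20 bases and share all their places. Other overlaps need a longer matching stretch in each copy, so the matching itself favours 20 nt. Longer or unsized inserts also had 141 pairs at 20 nt. Whether the peak at 20 nt comes from duplexes was not tested.

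**Figure D5:**
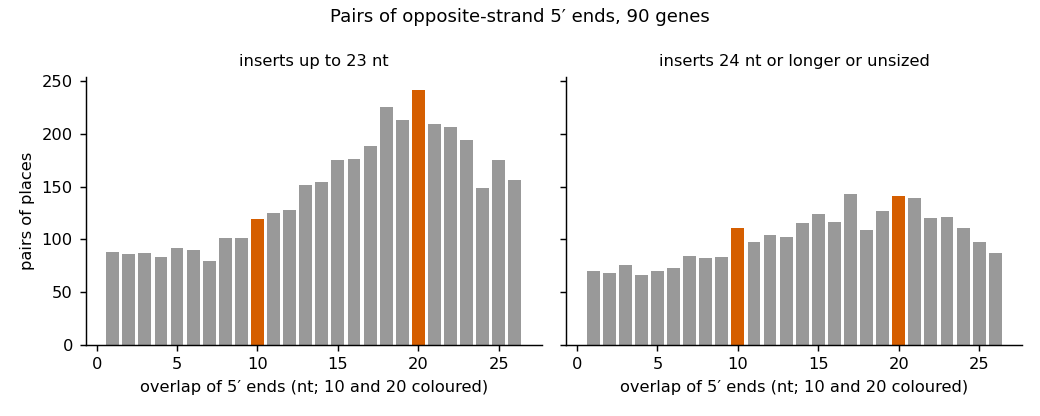
Number of pairs of 5′ ends on opposite strands (y axis) by their overlap in nt (x axis) over the 90 genes, for inserts up to 23 nt on the left and longer or unsized inserts on the right, with overlaps of 10 and 20 nt coloured. The left panel peaks at 20 nt with 242 pairs against 119 at 10 nt, and the right panel has 111 pairs at 10 nt and at most 143. An overlap of 20 nt equals the matched length and is favoured by the matching.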

How the data were processed

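The deposited files hold single reads with base qualities, so their values are other than counts, and per the labels' protocols the RNA was size-fractionated, ligated and amplified. The authors' aligner, build and filters are not given in the sources used here. Counts of reads were made here. The 3′ linker (17 nt) was derived from the reads and removed at an overlap of at least 4 bases (26 nt reads) or 6 bases (36 nt reads), with up to 20% mismatches. In 36 nt reads, those without a linker were taken as over 30 nt and set aside. Inserts of at least 18 nt were matched by their first 20 nt to 141767 GENCODE M21 transcripts (GRCm38). No genome, repeats or nuclear tRNA were used, so unique means 1 place among annotated exons. Low-complexity reads, and those with over 1000 places, were left out. Matching was checked on 60 sequences by string search and trimming on simulated data.

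The gene set, though its rule uses symbols only, and the lists were proposed with earlier results of these data known. Genes were named by at least 3 unique or 10 weighted antisense reads, plus the 5 with most unique sense reads, a tie being broken by weighted sense reads. With 1 library per window no test was made. Python 3.11.15, numpy 2.4.6 and scipy 1.17.1 were used.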

Additional observations from a re-analysis of the deposited data

Results flagged for a closer look

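Reads of the 19-30 nt library in which no linker was found, taken as over 30 nt, were set aside from the comparisons above. Among them, 746 reads matched 30 of the 90 Zfp genes antisense (33.3%, against 24.2% of all protein_coding genes). All 746 were shared, and they came to 10 weighted reads. That is a sum of fractions, so the limit given above for a count of 0 cannot be applied to it. On the sense strand 864 such reads, 13 of them unique, matched 47 of the 90 genes (52.2%, against 25.5% of all protein_coding genes).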

How the results depend on the processing

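Of 125 settings of counts and shares over the 90 genes 39 moved beyond the counting interval (or 1.5-fold for counts of genes), as did 9 of 23 ratios. The ratio of the 19-24 over the 24-30 nt library, 0.758 with an interval that holds 1, changed direction in 4 settings. The cause was not tested unless the setting itself shows it. Values follow in the order 19-24, 24-30 and 19-30 nt library. With unique reads only, antisense reads were 0, 3 and 2, their share 0%, 13% and 8.33%, genes hit 0, 3 and 1 (4 in all), the share starting with U 100% in the 24-30 and 0% in the 19-30 nt library, the share of 20 to 23 nt 100%, and the ratio of the 19-24 over the 24-30 nt library 0. With every match counted in full, antisense reads were 1368, 1216 and 3256, the share in the 19-30 nt library 43.9%, and the 19-30 over 24-30 nt ratio 6.27 and the 19-24 over 24-30 nt ratio 1.23. With the whole insert matching, antisense reads were 6.08 and 12.5 in the 19-24 and 24-30 nt libraries, and in the latter the share was 25.9% and genes hit 26. With distinct sequences, antisense reads were 10.9, 12.5 and 16.2, U in the 19-30 nt library 37%, and the ratios of that library 1.32 over the 24-30 and 1.22 over the 19-24 nt library, and the 19-24 over 24-30 nt ratio 1.08. Without reads matching small RNA genes, the 19-24 over 24-30 nt ratio was 3.14 and the 19-30 over 19-24 nt ratio 1.03. Per matched read without microRNA they were 3.29 and 1.12. After seeing the data, a pair of settings was added. Without the 3 leading genes, antisense reads were 6.59, 8.08 and 13.1, with a share of 36.8% in the 19-30 nt library. With at most 10 places per read, antisense reads were 5.63, 12.9 and 10.5, genes hit 12, 10 and 13 (21 in all), U 91.1% in the 24-30 and 33.5% in the 19-30 nt library, the share in the latter 19.3% and the 19-30 over 24-30 nt ratio 1.9. Of 48 values of single named genes 16 moved. No paired analysis was possible because each window has 1 library, and leaving out a replicate was not possible for the same reason.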
